A study of Mus musculus with 12 samples.

Results

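Small nucleolar RNAs (snoRNAs) are short, stable noncoding RNAs of the nucleolus, and in mammals most of them are cut out of the introns of other genes, their hosts. Of the 360 rows that the deposited table annotates as snoRNA, 106 reached the level required here, an FPKM (fragments counted per kilobase of gene, scaled to the depth of the library) of 1 or more in 4 or more of the 12 libraries, and 254 did not. The choice therefore rests on the FPKM values themselves, over all 3 groups. Each of the 106 was set beside the gene whose annotated start and end span it.

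The cells were mouse macrophages grown from bone marrow for 7 days with GM-CSF, a growth factor for myeloid cells, at 50 ng/mL. In the PLG+EACA+RNase group they received, for 24 h, plasminogen (PLG, the precursor of the protease plasmin) that had been exposed to EACA, a lysine analogue that binds plasminogen, and to RNases. In the PLG+EACA group the plasminogen had been exposed to EACA alone, and the untreated group received none. Each group had 4 libraries of total RNA, and the labels tie none of them to an animal or culture, so p-values measure only the spread between these libraries. No group received EACA or RNase without plasminogen, so no difference below can be assigned to one of these agents alone, and what the labels give for all 12 libraries is the GM-CSF culture.

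Depth, recovered from the smallest steps of the FPKM values, ran from 12940888 to 22677041 reads. The 7 macrophage markers examined were all tested, with a summed level of 3949 to 4468 FPKM with PLG+EACA+RNase, 3952 to 5785 with PLG+EACA and 5189 to 5788 in untreated cells. This sum mainly follows 1 gene, Lyz2, which averaged 4189 FPKM over the 12 libraries, whereas the next highest marker, Csf1r, averaged 232. None of the T cell or B cell markers reached the level of testing, whereas 3 of 5 dendritic cell, 2 of 6 neutrophil and 2 of 4 stromal and endothelial markers did. Only 1 of the 3 erythroid markers, Alas2, was among the deposited genes, and it did not reach the level. In such bulk samples, fewer cells of a type and less RNA per cell cannot be told apart. Gm26917, a noncoding RNA gene, took 10.3% to 15.2% of the reads and so bears on every FPKM.

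There are 2 families of snoRNA. Box C/D RNAs carry a C box near the 5′ end and a D box near the 3′ end and guide the methylation of ribosomal and small nuclear RNA by fibrillarin, and box H/ACA RNAs end shortly after an ACA and guide pseudouridylation by dyskerin. A few members of either family act in cutting the ribosomal RNA precursor instead, and others reside in Cajal bodies and modify small nuclear RNA. Because the host's promoter drives most of them, the level of a mature snoRNA depends on transcription of the host, on release from the intron and on binding by the core proteins.

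Sequences were taken from GENCODE M21 (GRCm38) and are printed 5′ to 3′ on the strand of the gene. The first set holds the 4 highest members. Capitals mark a C box (TGATGA) beginning in the first 15 bases with a D box (CTGA) beginning in the last 15, or else an ACA beginning in the last 8 bases.
Snord17: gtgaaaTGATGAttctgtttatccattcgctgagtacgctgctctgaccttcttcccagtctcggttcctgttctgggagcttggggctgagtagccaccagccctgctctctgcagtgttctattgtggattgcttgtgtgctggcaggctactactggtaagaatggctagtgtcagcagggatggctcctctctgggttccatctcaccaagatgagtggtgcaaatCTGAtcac
Gm26448: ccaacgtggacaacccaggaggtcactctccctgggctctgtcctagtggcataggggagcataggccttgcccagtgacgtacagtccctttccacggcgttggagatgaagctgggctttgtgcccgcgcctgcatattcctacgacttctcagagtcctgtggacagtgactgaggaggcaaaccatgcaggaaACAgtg
Gm24119: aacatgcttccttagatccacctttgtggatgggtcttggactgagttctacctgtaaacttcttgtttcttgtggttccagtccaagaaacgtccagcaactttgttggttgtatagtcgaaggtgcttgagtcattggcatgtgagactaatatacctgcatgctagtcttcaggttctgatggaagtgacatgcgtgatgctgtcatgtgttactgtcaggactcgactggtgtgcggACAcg
Gm25835: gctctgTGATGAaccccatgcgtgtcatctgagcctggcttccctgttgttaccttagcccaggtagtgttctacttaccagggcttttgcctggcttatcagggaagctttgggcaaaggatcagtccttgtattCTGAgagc

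The second set holds members described below for a difference between groups, among them Gm24944, which was read in both treated groups and in no untreated library. Gm24944 has neither pair of boxes by these criteria and is printed without capitals.
Snora57: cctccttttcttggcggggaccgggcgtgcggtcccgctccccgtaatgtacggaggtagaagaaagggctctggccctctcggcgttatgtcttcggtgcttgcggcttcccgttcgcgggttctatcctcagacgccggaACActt
Gm27295: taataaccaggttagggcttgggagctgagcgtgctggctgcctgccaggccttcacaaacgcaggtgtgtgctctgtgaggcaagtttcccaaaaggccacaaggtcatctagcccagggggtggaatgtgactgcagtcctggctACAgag
Snora17: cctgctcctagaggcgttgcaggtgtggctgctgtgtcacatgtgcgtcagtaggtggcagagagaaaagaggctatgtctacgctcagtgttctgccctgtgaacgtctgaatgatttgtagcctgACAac
Snord37: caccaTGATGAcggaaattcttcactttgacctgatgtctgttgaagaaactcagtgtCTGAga
Gm24944: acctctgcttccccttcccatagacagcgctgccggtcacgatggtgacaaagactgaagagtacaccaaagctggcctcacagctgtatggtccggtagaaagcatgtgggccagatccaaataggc

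The 106 snoRNAs were 64 to 246 bases long, and 67 of them carry only a Gm or other clone name, 25 are named Snord and 12 Snora. By the boxes above, 25 had the C/D pair, 44 the H/ACA end (required with a length of at least 120 bases) and 37 neither. As a background, 32851 mouse promoter windows of RefSeq on GRCm38 were cut to a fixed length for each family, not to each member's length. In these windows the C/D pair occurred in 0.0244% on the given strand and in 0.00913% on the other strand. The ACA alone occurred in 8.92% and 9.39%, so that an H/ACA label from these letters is weak. Among all snoRNA rows of the table, 25 of 45 with the C/D pair and 44 of 154 with the H/ACA end reached the level.

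Nearly all members lay inside another gene. A spanning gene was annotated for 98, with the snoRNA in an intron for 95 and overlapping an exon for 3, and on the same strand for 85 and the opposite strand for 13. For 92 of them the spanning gene was itself tested, which gave 77 distinct genes, called hosts below. Of all spanning genes, tested or not, 14 held more than 1 member. The 77 include genes on the opposite strand, from whose introns the snoRNA cannot be cut, such as App for Gm27295. Ribosomal protein genes made up 16 of the 77 hosts and held 23 members. Rps2, 1 of the 16, lies opposite to its member Snora78. The host counts and ratios below keep such genes. The remaining 8 members had no spanning gene, among them Snord118 (the U8 RNA, needed for processing of the large-subunit ribosomal RNA), Snord13 (U13), Snord104 and Snora17.

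Most of the 106 rested on very few reads. An FPKM of 1 in a gene of 100 bases stood for 1.29 reads in the shallowest library and 2.27 in the deepest, and the median member had 3.5 reads per library (quartiles 2 and 6.5). Only 24 members had at least 10 reads in at least 4 libraries, 53 were at 0 in at least 1 library, and 31 had an FPKM of at least 1 in all 12. At the edge of the rule, Gm23245 in Cct6a, a chaperonin subunit gene, stood just inside with 1.002 FPKM in its library of rank 4. Gm24616 in Eif4a2, a translation initiation factor gene, stood just outside with 0.973. Together the members took 0.00749% ± 0.000366 of the reads with PLG+EACA+RNase, 0.00703% ± 0.000645 with PLG+EACA and 0.00781% ± 0.000535 in untreated cells (mean ± SD, n = 4 libraries each). These ranges overlapped, and a sum over members chosen by level was not tested.

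Levels were very uneven among the members. The mean FPKM over the 12 libraries had a median of 1.63, and the 3 members of 200 bases or more, Snord17, Gm26448 and Gm24119, had the highest. These 3 held 49.8% to 58.0% of the members' reads in a library. Over all 106, length and mean FPKM had a Spearman rho of 0.08, given as a description over genes that share libraries.

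Snord17, a box C/D RNA of 238 bases at chr2:144265979-144266216 (minus strand) in an intron of the sorting nexin gene Snx5, was the highest of all. It had 91.1, 80.7, 88.6 and 77.6 FPKM with PLG+EACA+RNase, 65.5, 91.3, 70.6 and 69.8 with PLG+EACA, and 71.1, 71.1, 83.8 and 81.6 in untreated cells, from 250 to 493 reads per library. The groups overlapped in every comparison.

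Gm26448, at chr9:120129351-120129553 in an intron of the ribosomal protein gene Rpsa, had 73.7, 70.4, 72.7 and 58.2 FPKM with PLG+EACA+RNase, 59.3, 91.9, 72.3 and 60.5 with PLG+EACA, and 85.2, 66.3, 76.5 and 72.1 in untreated cells. Gm24119, at chr10:91118291-91118536 in the mitochondrial phosphate carrier gene Slc25a3, had 30.5, 18.8, 30.2 and 21.2 FPKM with PLG+EACA+RNase, 21.3, 23.8, 27.3 and 32.0 with PLG+EACA, and 27.9, 21.7, 30.2 and 26.6 in untreated cells. Neither passed the test in any comparison, and the groups of both overlapped throughout.

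Of the next highest members, Gm24336 in Cwf19l1, a homologue of a yeast splicing factor gene, averaged 16.2 ± 4.81 FPKM with PLG+EACA+RNase, 16.7 ± 3.30 with PLG+EACA and 19.1 ± 4.31 in untreated cells (SD, n = 4 each here and below). Snord15a, in the ribosomal protein gene Rps3, averaged 10.3 ± 2.10, 10.5 ± 1.25 and 9.75 ± 1.42 FPKM in the same order of groups. Gm23442, in Prrc2a, averaged 9.09 ± 1.44, 8.86 ± 1.71 and 10.7 ± 3.02 FPKM. Snord104, which lies in no annotated gene, was the most variable of these, with 11.9, 16.9, 5.52 and 8.29 FPKM with PLG+EACA+RNase, 10.3, 15.7, 11.997 and 4.89 with PLG+EACA, and 15.1, 10.6, 4.19 and 1.70 in untreated cells. None of the 4 passed the test in any comparison.

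**Figure D1:**
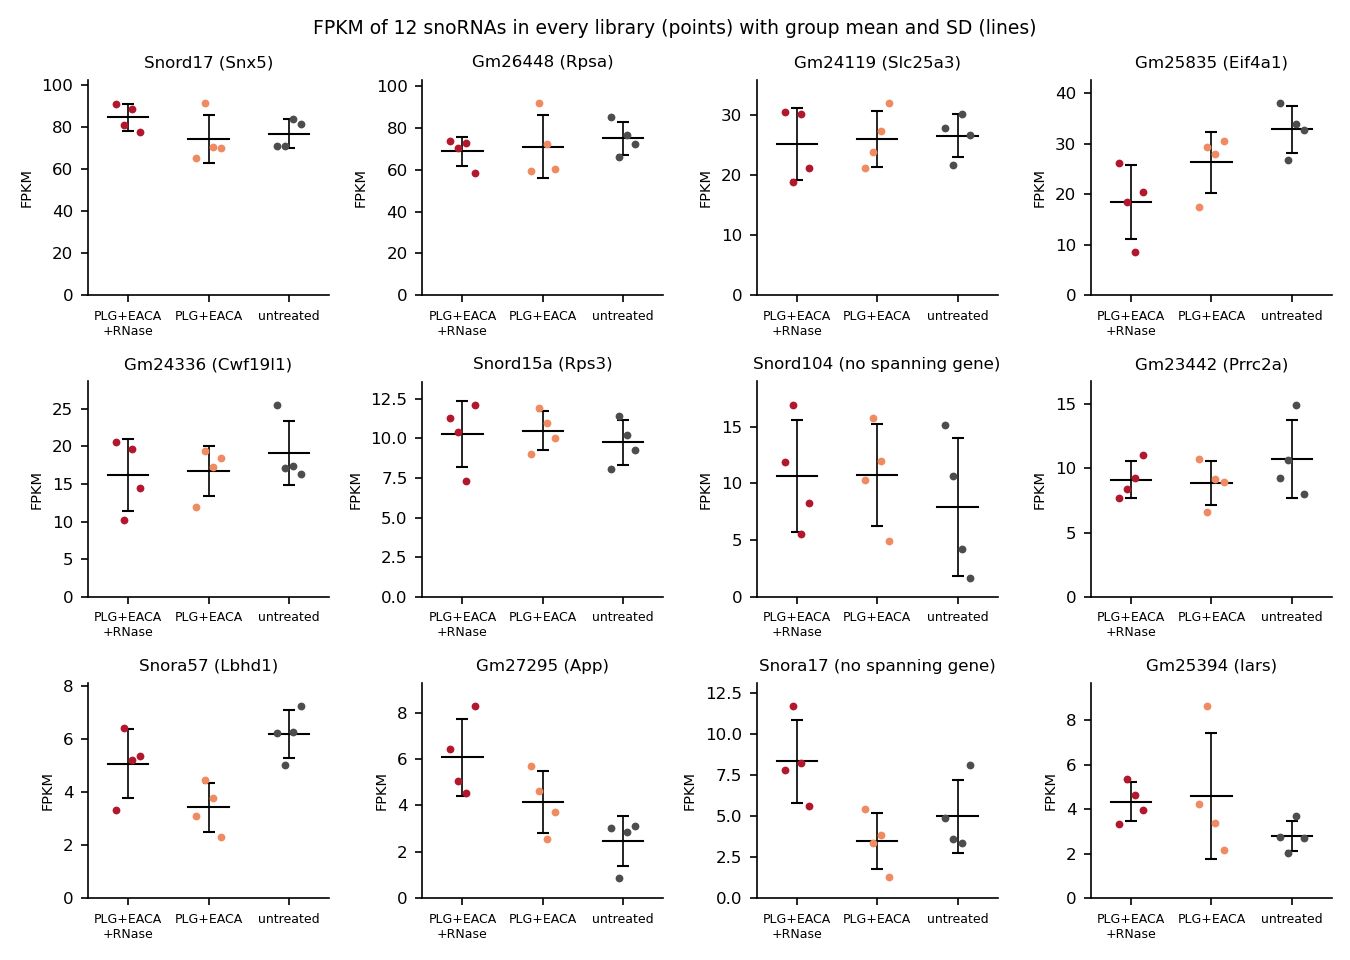
FPKM of 12 snoRNAs (spanning gene in parentheses) in each library of PLG+EACA+RNase, PLG+EACA and untreated cells. Lines give the group mean and SD, and each panel has its own axis from 0. The 3 groups overlap for Snord17, Gm26448 and Gm24119, while the untreated libraries of Gm25835 (26.8 to 38.0) lie above those with PLG+EACA+RNase (8.59 to 26.2).

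The levels of hosts and of the snoRNAs inside them were only loosely related. The median host had 20.2 FPKM, and the median ratio of host to member was 12.3, with a Spearman rho of 0.36 between both levels over the 92 pairs (a description, since pairs share hosts and libraries). Of the members with a tested host, 3 exceeded it in mean FPKM. Snord17 was 2.64 times the level of Snx5, Gm24336 was 11.1 times that of Cwf19l1, and Snord89 was 4.62 times that of the noncoding gene Gm15832. The count leaves out spanning genes too low to be tested. The 6 members inside such genes all exceeded them, from 1.84 times (Gm24339) to 30.8 times (Gm24770). Eef2, which encodes translation elongation factor 2 and was the highest host at 647.6 FPKM, held Snord37 at 1.67.

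**Figure D2:**
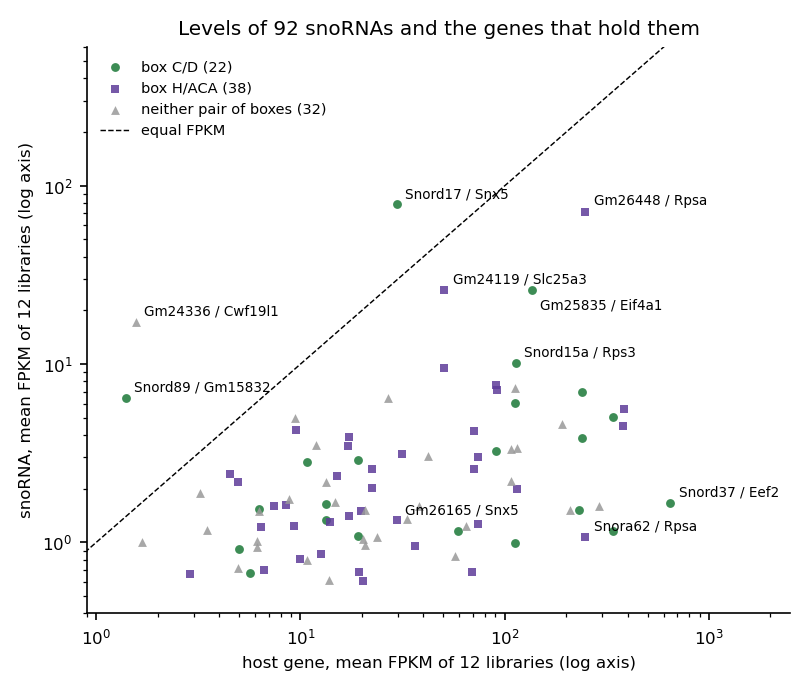
Mean FPKM of 92 snoRNAs against that of the tested gene that spans them, both on log axes, 1 point per snoRNA, marked by its boxes. All but Snord17, Gm24336 and Snord89 lie below the line of equal FPKM, and the hosts run to 647.6 FPKM while most snoRNAs stay under 10.

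Members of 1 host also differed from each other. In Rpsa, Gm26448 averaged 71.6 FPKM over the 12 libraries and Snora62 averaged 1.07. In Snx5, Snord17 averaged 78.6 and Gm26165 averaged 1.33. In the ribosomal protein gene Rpl17, the 3 members Snord58b, Gm26202 and Gm23301 averaged 7.39, 6.02 and 0.993 FPKM.

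Gm22192 and Gm25632, which both lie in Prrc2b, are identical in sequence. Reads of such copies cannot be assigned to 1 of them by sequence, so their separate values are uncertain.

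Gene-level values do not separate the mature snoRNA from unspliced host transcript that runs across it. Whether counting used the strand is not given in the sources used here, so the values of the 13 members opposite to their spanning gene, and of the 3 that overlap an exon, are uncertain in addition.

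PLG+EACA was first set against untreated cells, which shows the response to the plasminogen preparation without RNase. Of the 106 members, 2 were higher and 6 lower at a limma adjusted p under 0.05, or 7.55%. Of all 11165 genes tested, 14.9% were higher and 53.4% lower, 68.3% in all. Among the 421 tested genes that had 10 reads in fewer than 4 libraries, as 82 of the members did, 12.4% passed. In 5 members the groups did not overlap, beside 64.6% of all genes. Of the 8, 4 would not have reached the level without the libraries of the group in which they were higher. Their difference is built into the choice of members, so the counts are a description, and such members are given below by their values, with no test. The members' median log2 fold change was -0.24, beside -0.26 for all genes, and their median standard error was 0.44, beside 0.09. Scaling the libraries by the median of ratios moved the median of all genes to -0.01, and 4 members were then higher and 3 lower, beside 27.3% and 26.4% of all genes (53.7% in all).

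Snora57 was the single well-read member that passed. It is an H/ACA RNA at chr19:8888538-8888685 (minus strand), inside Lbhd1 but on the opposite strand. It had 3.12, 4.47, 3.78 and 2.31 FPKM with PLG+EACA, against 6.22, 5.03, 6.27 and 7.24 in untreated cells. All 4 treated values lay below all 4 untreated ones, a 1.73-fold lower level (log2 fold change -0.79, SE 0.20, limma adjusted p = 0.00349), from 40 and 68 reads in total. The call ended under 1 of 22 alternatives, limma voom on the recovered reads with median-of-ratios scaling (adjusted p = 0.106). Fold changes here and below are of FPKM + 0.5, which understates the change of low genes.

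The other 7 had fewer reads. Gm23201, which overlaps an exon of the snoRNA host gene Zfas1, was higher by 0.90 on the log2 scale (limma adjusted p = 0.0263), and this call ended without PLG+EACA replicate 2, without untreated replicate 4 and under 2 of the other alternatives. Snord59a, in the ATP synthase gene Atp5b, was lower, with a log2 fold change of -1.20 (limma adjusted p = 0.0499), a call that ended under 15 of 21 alternatives. AF357399, Gm24339, Snord37 and Gm23245 were the 4 that rest on their untreated libraries for their level. AF357399, in the ribosomal protein gene Rps16, had 1.23, 0.353, 0.448 and 0.457 FPKM with PLG+EACA, against 2.94, 2.17, 4.30 and 1.43 in untreated cells. Gm24339, in Cep295, had 5 reads in all with PLG+EACA and 15 in untreated cells. Gm24944, the last, is described below. AF357399, Snord59a, Gm24339, Gm23201 and Gm24944 were chosen after their values were seen. Without a filter on low values 4 of the 106 passed, and 5 did with limma voom on the recovered reads.

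**Figure D3:**
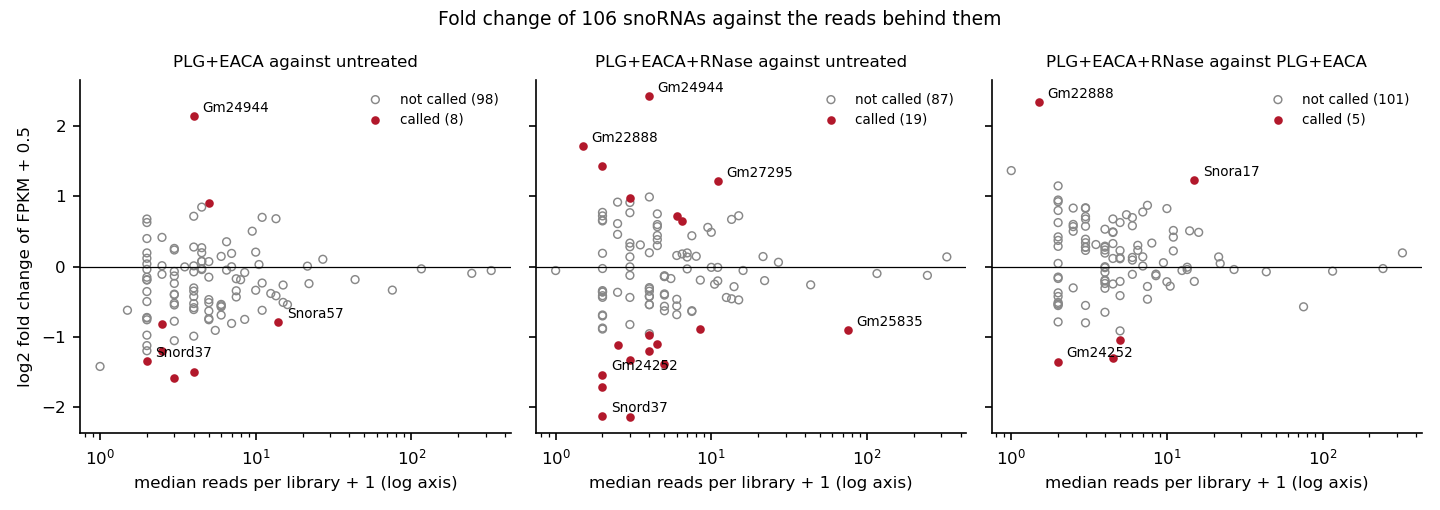
Log2 fold change of FPKM + 0.5 for the 106 snoRNAs in each comparison, against the median reads per library plus 1 on a log axis, with those passing the limma test in red. The 8, 19 and 5 that passed are mostly members with few reads, and the 3 highest members lie near 0 in all panels.

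Of the 77 hosts, 8 were higher and 39 lower (61.0%, beside 68.3% of all genes), but scaling by the median of ratios turned the split to 32 higher and 12 lower. Snx5 had 24.3, 26.6, 24.2 and 23.4 FPKM with PLG+EACA, against 38.8, 35.8, 39.2 and 38.5 in untreated cells (log2 fold change -0.62, SE 0.06, limma adjusted p = 4.23e-06). Rpsa averaged 228 ± 15.4 FPKM with PLG+EACA and 254 ± 4.23 in untreated cells (log2 fold change -0.16, limma adjusted p = 0.0214). Of the 16 ribosomal protein hosts, 0 were higher and 5 lower, with log2 fold changes from -0.30 to 0.01 over the 16. Of the 5 called members with a tested host, 3 had a host called in the same direction and 0 in the other. No chance level was worked out for these counts, which include members that rest on their higher group.

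The ratio of a snoRNA to its own host does not depend on the scale between libraries other than through the pseudocount, and was tested over all 724 tested genes that lie inside another tested gene. With PLG+EACA against untreated cells it passed for 1 of the 92 snoRNA pairs (higher). Of the 724, 3.04% were higher and 3.18% lower, 6.22% in all. The pair was Snord17 and Snx5. Its log2 ratio was 1.41, 1.76, 1.52 and 1.56 with PLG+EACA, against 0.86, 0.98, 1.08 and 1.07 in untreated cells, so that all treated libraries were above all untreated ones (difference 0.56, SE 0.10, limma adjusted p = 0.00695). Snord17 itself had a log2 fold change of -0.06 that did not pass (limma adjusted p = 0.629), while Snx5 was lower. Leaving out any single library kept the ratio past the threshold.

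PLG+EACA+RNase was compared with untreated cells next, which asks the same of the RNase-exposed preparation against the same 4 untreated libraries. Here 7 snoRNAs were higher and 12 lower, or 17.9% of the 106. Of all genes, 16.0% were higher and 48.4% lower, 64.4% in all, and 19.5% of the 421 genes with few reads passed. The median log2 fold change of the members was -0.14 beside -0.20 for all genes. After scaling by the median of ratios 11 were higher and 6 lower, beside 28.4% and 26.4% of all genes (54.8% in all). In 11 members the groups did not overlap, beside 61.7% of all genes. Of the 19, 11 would not have reached the level without the libraries of their higher group.

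Gm25835, a C/D RNA at chr11:69668852-69668995 (minus strand) in an intron of Eif4a1, the gene of the RNA helicase of the cap-binding complex, was the most abundant member that passed. It had 26.2, 18.5, 8.59 and 20.5 FPKM with PLG+EACA+RNase, against 38.0, 26.8, 33.9 and 32.7 in untreated cells. All 4 treated values were below the untreated ones (1.87-fold lower, log2 fold change -0.91, SE 0.28, limma adjusted p = 0.0141), from 194 and 355 reads. Its host fell by less, to 127 ± 8.03 FPKM with PLG+EACA+RNase, against 143 ± 2.15 in untreated cells (log2 fold change -0.17, limma adjusted p = 0.00742), and the ratio of both did not pass (difference -0.74, SE 0.29, limma adjusted p = 0.161). The call of Gm25835 ended under 2 of 22 alternatives. These were median-of-ratios scaling (log2 fold change -0.68, limma adjusted p = 0.0668) and limma voom on the recovered reads with that scaling.

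Gm27295, which ends in an ACA, at chr16:85168849-85169001 within App (the amyloid precursor protein gene) but on the opposite strand, was the well-read member that was higher. It had 6.41, 5.04, 4.55 and 8.28 FPKM with PLG+EACA+RNase, against 3.01, 0.884, 2.87 and 3.11 in untreated cells. The groups did not overlap (2.31-fold higher, log2 fold change 1.21, SE 0.31, limma adjusted p = 0.00479), and the call held under all alternatives tried. App was at 72.1 ± 1.43 FPKM with PLG+EACA+RNase and 71.2 ± 1.33 in untreated cells, and did not pass. With PLG+EACA, Gm27295 had 5.70, 4.61, 2.56 and 3.73 FPKM, a log2 fold change of 0.70 from untreated cells that did not pass (limma adjusted p = 0.0649).

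Snord37, a C/D RNA of 64 bases at chr10:81178950-81179013 in an intron of Eef2, was nearly unread in treated cells. It had 0.766, 0, 1.21 and 0 FPKM with PLG+EACA+RNase, 1.60, 0.689, 0.875 and 0.892 with PLG+EACA, and 1.44, 4.23, 4.58 and 3.72 in untreated cells. The sums were 2 reads with PLG+EACA+RNase, 5 with PLG+EACA and 16 in untreated cells. Relative to depth, the ratio of PLG+EACA+RNase to untreated was 0.133, and that of PLG+EACA to untreated was 0.297. Outside the untreated group 2 libraries reached 1 FPKM, so Snord37 was chosen through the group in which it was high, and no test of the difference is given.

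Eef2, in contrast, averaged 661 ± 24.7 FPKM with PLG+EACA+RNase, 608 ± 23.0 with PLG+EACA and 674 ± 7.61 in untreated cells.

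Ratios passed for 4 of the 92 pairs in this comparison, 3 higher and 1 lower. Of the 724, 4.7% were higher and 3.45% lower, 8.15% in all. The pairs of Snord37 (lower) and Gm22888 (higher) are among the 4 and rest on the group in which the snoRNA was high, so nothing is read from them. Snord17 and Snx5 passed again, with log2 ratios of 1.72, 1.498, 1.72 and 1.70 with PLG+EACA+RNase (difference from untreated 0.66, SE 0.10, limma adjusted p = 0.00227), where Snx5 was at 26.4 ± 2.06 FPKM. Gm25394 and its host Iars, the isoleucyl-tRNA synthetase gene, were the remaining pair. Gm25394 had 3.32, 5.35, 4.65 and 3.97 FPKM with PLG+EACA+RNase, against 2.77, 2.04, 3.67 and 2.69 in untreated cells, and overlapped between them. Iars fell to 14.5 ± 1.14 FPKM, against 22.2 ± 0.748 in untreated cells, and the ratio differed by 1.16 (SE 0.30, limma adjusted p = 0.033). Leaving out untreated replicates 1, 2 or 4 or PLG+EACA+RNase replicates 2, 3 or 4 ended this call (adjusted p of 0.071 to 0.0868), as did the replicate number as a block.

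**Figure D4:**
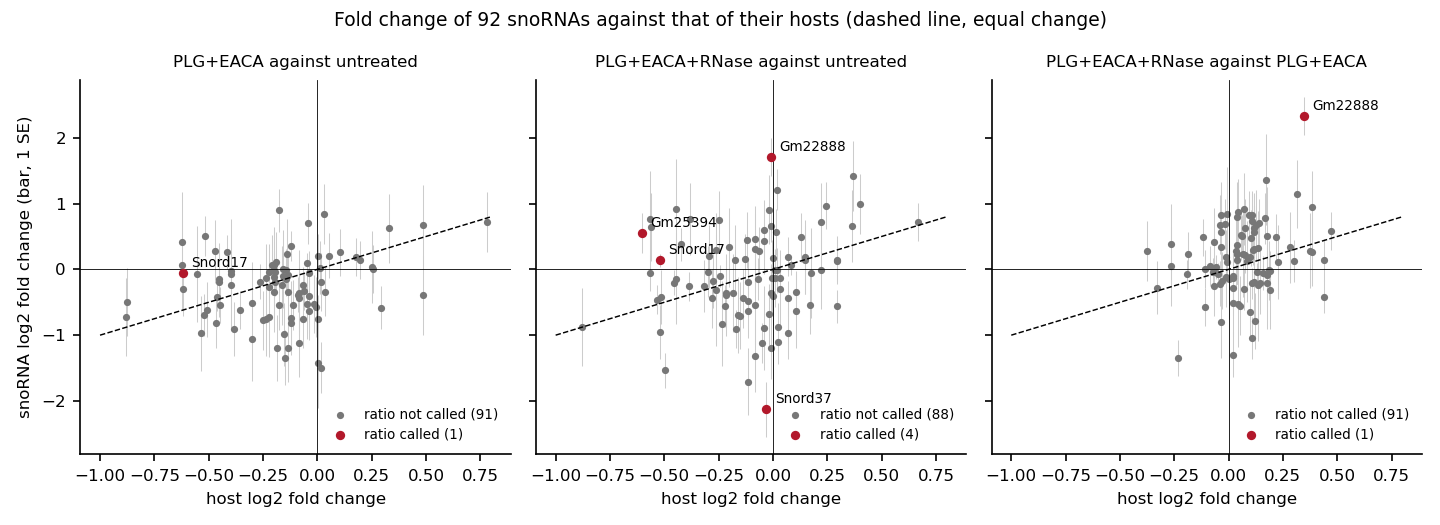
Log2 fold change of 92 snoRNAs (bars, 1 SE) against that of their hosts in each comparison, with pairs whose ratio passed the limma test in red and a dashed line for equal change. Snord17 lies left of 0 on the host axis and near 0 on its own in both comparisons with untreated cells, and Snord37, chosen through its untreated libraries, lies below a host that is near 0.

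Another well-read member passed, with overlapping groups. Gm22270, in the ribosomal protein gene Rpl5, had 2.60, 2.25, 0.585 and 3.998 FPKM with PLG+EACA+RNase, against 3.14, 5.13, 5.18 and 3.61 in untreated cells (log2 fold change -0.88, limma adjusted p = 0.0498), and this call, chosen after its values were seen, ended under 16 of 22 alternatives.

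Of the 77 hosts, 10 were higher and 24 lower (44.2%, beside 64.4% of all genes), and after scaling by the median of ratios 36 were higher and 9 lower. None of the 16 ribosomal protein hosts passed in limma, and 2 had an unadjusted p under 0.05. Of the 16 called members with a tested host, 5 had a host called in the same direction and 0 in the other. These counts too include members that rest on their higher group, and they have no chance level.

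The comparison of PLG+EACA+RNase with PLG+EACA asks what RNase exposure of the preparation changed. In it 2 snoRNAs were higher and 3 lower, or 4.72% of the 106. Of all genes, 12.1% were higher and 8.73% lower, 20.8% in all, and 4.99% of the genes with few reads passed. In 4 members the groups did not overlap, beside 18.1% of all genes. After scaling by the median of ratios 2 were higher and 3 lower, beside 10.6% and 11.4% of all genes (22.0% in all). Of the 5, 3 would not have reached the level without the libraries of their higher group. The ratio to the host passed for Gm22888 alone of the 92 pairs (higher), while 0.276% of the 724 passed (0.138% higher and 0.138% lower). Gm22888 was chosen through the libraries in which it was high, and nothing is read from this count. The median log2 fold change was 0.14 for the members and 0.04 for all genes. Hosts passed in 9 cases upward and 3 downward (15.6% of 77), and 2 of the 16 ribosomal protein hosts were higher. Rpsa was 1 of these, at 260 ± 14.9 FPKM with PLG+EACA+RNase and 228 ± 15.4 with PLG+EACA (log2 fold change 0.19, limma adjusted p = 0.0309), while its snoRNA Gm26448 had a log2 fold change of -0.03 (SE 0.13).

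Snora17, an H/ACA RNA at chr2:26639190-26639321 (minus strand) in no annotated gene, was the well-read member that passed. It had 7.80, 11.7, 8.20 and 5.60 FPKM with PLG+EACA+RNase, against 5.44, 3.34, 3.82 and 1.30 with PLG+EACA. The groups did not overlap (2.35-fold higher, log2 fold change 1.23, SE 0.35, limma adjusted p = 0.0313), and untreated cells had 4.88, 3.59, 3.33 and 8.12. The call ended without PLG+EACA+RNase replicate 1, 2 or 3, without PLG+EACA replicate 2 or 4, and without a filter on low values, with adjusted p of 0.0514 to 0.0913.

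The other 4 had few reads. Gm23201 was lower, with a log2 fold change of -1.04 (limma adjusted p = 0.0406), from 12 and 31 reads and with overlapping groups, and the call ended under 13 of 21 alternatives, 9 of them with a single library left out. Gm22888 (higher), Gm24252 and Gm26387 (both lower) are the 3 that rest on their higher group and are given by their values. Gm24252, which lies opposite to the guanine exchange factor gene Dock8, was at 0 reads in all 4 libraries with PLG+EACA+RNase. It had 3, 4, 1 and 1 reads with PLG+EACA and 4, 1, 2 and 3 in untreated cells. With 3 reads put in place of 0 over these 4 libraries, it would be 2.67-fold lower with PLG+EACA+RNase than with PLG+EACA, and 3.12-fold lower than in untreated cells. These values leave out the counting error of the other group and are no lower bounds. Gm26387, in the ribosomal protein gene Rpl5, had 4 reads with PLG+EACA+RNase, 18 with PLG+EACA and 16 in untreated cells. Gm23201, Gm24252 and Gm26387 were chosen for the text after their values were seen.

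Gm22888 and Gm23245 reached the level in 1 group only. Gm22888, in an intron of the ubiquitin-associated protein gene Ubap2, had 2.55, 1.54, 2.01 and 2.06 FPKM with PLG+EACA+RNase, 0 in all libraries with PLG+EACA, and 0.598, 0, 0 and 0.773 in untreated cells. These values stood for 11, 0 and 2 reads in all. Ubap2 averaged 11.6 ± 0.895, 9.02 ± 0.666 and 11.7 ± 0.523 FPKM in the same order. Gm23245 reached the level in the untreated libraries only, with 3 reads in all with PLG+EACA+RNase, 5 with PLG+EACA and 12 in untreated cells.

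Gm24944, at chr9:107987369-107987496 (plus strand) in an intron of Gm20661, reached it in both treated groups and not in untreated cells, so that it too is given with no test. It had 3.45, 1.39, 1.81 and 2.47 FPKM with PLG+EACA+RNase, 2.003, 1.72, 1.75 and 1.34 with PLG+EACA, and 0 in each untreated library. The reads were 21 with PLG+EACA+RNase, 17 with PLG+EACA and 0 in untreated cells. With 3 reads put in place of 0 over the untreated group, it would be 7.47-fold and 5.39-fold higher. These values leave out the counting error of the treated groups and are no lower bounds. Its spanning gene Gm20661 averaged 0.350 ± 0.159 FPKM with PLG+EACA+RNase, 0.189 ± 0.105 with PLG+EACA and 0.0312 ± 0.0101 in untreated cells, below the level of testing. It lies 3309 bases past the annotated end of Uba7, on the same strand.

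Uba7 encodes the enzyme that activates the ubiquitin-like protein Isg15 and is known to be induced by interferon. It had 14.3, 11.5, 12.7 and 22.9 FPKM with PLG+EACA+RNase, 25.4, 21.7, 22.0 and 33.2 with PLG+EACA, and 8.47, 7.85, 6.71 and 6.495 in untreated cells. Both treated groups lay above the untreated one (limma log2 fold changes 0.97, adjusted p = 0.000895, and 1.71, adjusted p = 1.13e-05). Whether reads from Uba7 transcripts that run past its end account for those at Gm24944 was not tested. Uba7 was lower with PLG+EACA+RNase than with PLG+EACA (log2 fold change -0.75, limma adjusted p = 0.0217), while Gm24944 had a ratio of 1.39 in reads between PLG+EACA+RNase and PLG+EACA (exact 95% interval 0.696 to 2.80).

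**Figure D5:**
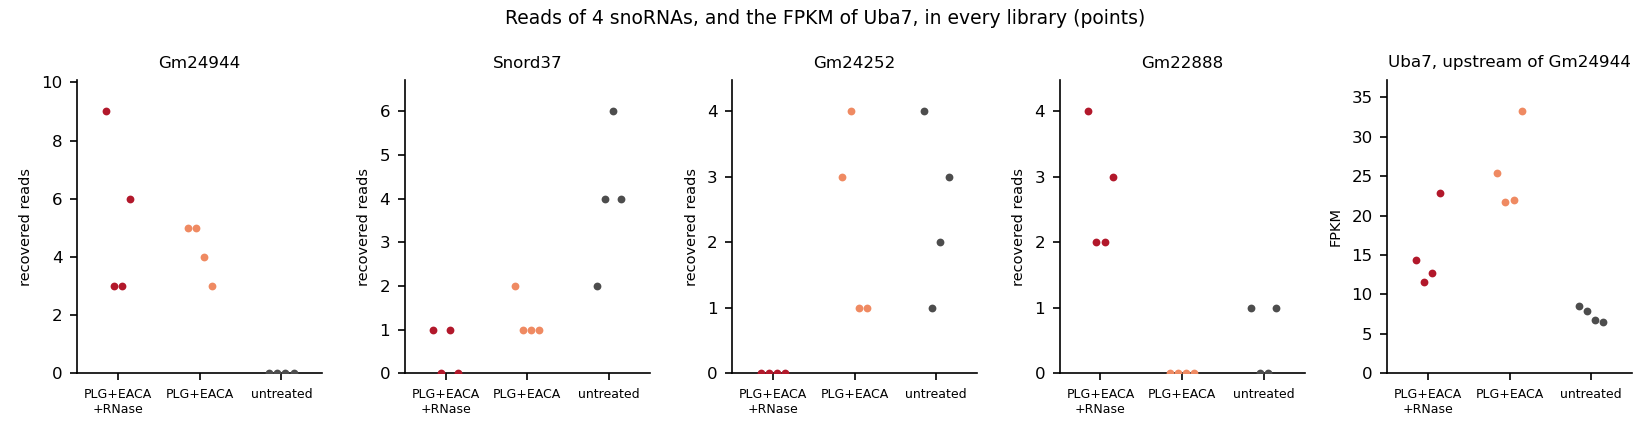
Recovered reads of Gm24944, Snord37, Gm24252 and Gm22888, and the FPKM of Uba7, in each library of the 3 groups, each panel on its own axis from 0. Gm24944 has 3 to 9 reads in treated libraries and 0 in untreated ones, and Snord37 has 0 to 2 in treated and 2 to 6 in untreated libraries.

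Over the 3 comparisons, 23 of the 106 snoRNAs were called at least once and 83 never. Of all genes tested, 68.3%, 64.4% and 20.8% were called in the single comparisons, in the order given above. The share of all genes called at least once was not worked out. Of the 32 calls behind the 23 snoRNAs, 18 rest on the higher group for the member's level, so the count is a description. The 2 comparisons with untreated cells share the untreated libraries.

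Other snoRNAs known from earlier work did not pass. Snord118, the U8 RNA, had 4.72, 4.39, 5.15 and 3.52 FPKM with PLG+EACA+RNase, 2.66, 3.59, 2.49 and 4.23 with PLG+EACA, and 8.18, 2.51, 5.79 and 5.73 in untreated cells. Its log2 fold change from untreated cells was -0.62 with PLG+EACA (SE 0.27, limma adjusted p = 0.0569). Snord35a, which lies in Rpl13a and belongs to a group of snoRNAs known from the lipotoxic stress response of rodent cells, was read too rarely to compare, with 0 to 4 reads per library with PLG+EACA+RNase, 0 to 2 with PLG+EACA and 1 to 5 in untreated cells. The transcript of Snhg14, which holds the imprinted snoRNA clusters of neurons, was at 0.0214 FPKM on average.

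Among the 3 members of Rpl17, Gm23301 had 1.51, 0, 0 and 0 FPKM with PLG+EACA+RNase, 0.789, 0.678, 0.861 and 0 with PLG+EACA, and 0.708, 3.12, 1.503 and 2.75 in untreated cells. These stood for 2 reads with PLG+EACA+RNase and 9 in untreated cells, with overlapping groups, and Gm23301 owed its level to the untreated libraries. Snord58b and Gm26202 had log2 fold changes between these groups of -0.19 (SE 0.34) and -0.63 (SE 0.42) that did not pass, and Rpl17 was at 110 ± 13.8 FPKM with PLG+EACA+RNase and 118 ± 4.32 in untreated cells.

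Genes for the proteins that bind and process snoRNAs were set beside all genes tested, of which 48.4% were lower and 16.0% higher in PLG+EACA+RNase, and 53.4% lower and 14.9% higher in PLG+EACA, against untreated cells. After scaling by the median of ratios, 26.4% of all genes were lower in each. No difference between a list and all genes was tested. Of 13 tested genes of the box C/D core and its assembly factors, 10 (76.9%) were lower in PLG+EACA+RNase and 8 (61.5%) in PLG+EACA, and 0 higher. Their median log2 fold changes were -0.33 and -0.39, beside -0.20 and -0.26 for all genes, and after scaling 6 (46.2%) and 5 (38.5%) were lower. All lists here were chosen with earlier results known. Fbl, the fibrillarin gene, averaged 6.98 ± 0.507 FPKM with PLG+EACA+RNase, 6.46 ± 0.304 with PLG+EACA and 8.88 ± 0.610 in untreated cells (limma adjusted p = 0.000637 and 7.83e-05). Nop56, a C/D core protein gene known as a snoRNA host, had 4.15 ± 0.412 and 4.15 ± 0.668 FPKM with PLG+EACA+RNase and PLG+EACA, against 7.17 ± 0.621 in untreated cells (limma adjusted p = 9.43e-05 and 7.91e-05), though no snoRNA inside it reached the level here.

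Of the 6 H/ACA core and assembly genes, 3 (50.0%) were lower with PLG+EACA+RNase, near the share of all genes, and 5 (83.3%) with PLG+EACA. After scaling, 1 was lower and 2 higher with PLG+EACA+RNase, and 3 were lower with PLG+EACA. Dkc1, the gene of the pseudouridine synthase dyskerin, was at 0.637 ± 0.0562 FPKM with PLG+EACA+RNase and 0.520 ± 0.0976 with PLG+EACA, against 1.72 ± 0.145 in untreated cells. Dkc1 reached the level of testing through its untreated libraries, so it is given with no test, though the counts above include it. RNA polymerase I and early ribosomal RNA processing genes were lower for 16 (57.1%) and 23 (82.1%) of 28, and higher for 2 and 1, with PLG+EACA+RNase and with PLG+EACA. Of all genes, 48.4% and 53.4% were lower, and 26.4% in each after scaling. Polr1a, the largest subunit of the polymerase, was at 1.42 ± 0.114, 1.54 ± 0.0954 and 3.63 ± 0.0841 FPKM in PLG+EACA+RNase, PLG+EACA and untreated cells (limma adjusted p = 1.29e-07 and 2.06e-07). With scaling, 12 (42.9%) polymerase I and processing genes were lower in each comparison, and 4 and 3 higher.

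Of 10 genes of small nuclear bodies and snoRNA chaperones, 10 and 9 were lower in PLG+EACA+RNase and PLG+EACA, beside 48.4% and 53.4% of all genes. After scaling 5 in each were lower, beside 26.4% of all genes in each, with 0 and 1 higher. Among 19 genes of the nuclear exosome and RNA trimming, 12 (63.2%) and 10 (52.6%) were lower, and 4 in each were higher, or 6 and 5 lower and 5 and 5 higher after scaling. Tent4a, which encodes a poly(A) polymerase that acts in RNA surveillance, was at 8.44 ± 1.91 FPKM with PLG+EACA+RNase, 12.5 ± 1.37 with PLG+EACA and 5.64 ± 0.414 in untreated cells. Other small nuclear and nucleolar RNAs had 2 (16.7%) and 1 (8.33%) of 12 lower, and 2 and 3 higher with 0 lower after scaling, which moved the median of all genes upward. Between PLG+EACA+RNase and PLG+EACA, 2 of the 88 list genes were higher and 6 lower, beside 12.1% and 8.73% of all genes, among them Tent4a (log2 fold change -0.55, limma adjusted p = 0.0128).

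Gas5 and Snhg1, noncoding host genes, held no member, whereas Snord87 in Snhg6 and Gm23201 in Zfas1 reached the level. Gas5, which holds a row of box C/D RNAs, averaged 6.22 ± 0.684 FPKM with PLG+EACA+RNase, 5.76 ± 1.28 with PLG+EACA and 7.24 ± 0.556 in untreated cells, and was lower with PLG+EACA (log2 fold change -0.33, limma adjusted p = 0.0481). Snhg1 averaged 2.47 ± 0.452, 2.001 ± 0.637 and 3.52 ± 0.220 FPKM in the same order, with log2 fold changes from untreated cells of -0.45 with PLG+EACA+RNase (limma adjusted p = 0.0472) and -0.72 with PLG+EACA (adjusted p = 0.00358).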

How the data were processed

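Per the labels, libraries from total RNA came from a strand-keeping kit. The deposited values were FPKM per gene, made by the authors, with gene start, end and length. Per the submitters' processing notes, the tools were STAR 2.7.11a, cutadapt 4.5, DESeq2 1.40.2, featureCounts 2.0.6 and FastQC 0.12.1, and the build GRCm38.p6, with no role given. FPKM times length summed to the same total in each library, and depth was recovered from its steps: all snoRNA values came within 0.1 of a whole number of reads. Coordinates of 31932 of 32246 rows were identical in GENCODE M21, which gave strand, introns and sequence.

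The 11165 genes with 4 or more libraries at 1 FPKM or above were fitted on log2(FPKM + 0.5) with limma 3.58.1 in R 4.3.3, as 3 group means over 12 libraries with a mean-variance trend. Tests were two-sided, with Benjamini-Hochberg adjustment over all genes tested and a threshold of 0.05. Ratios of nested gene to host were fitted likewise over 724 pairs. The host was the tested spanning gene with the highest mean FPKM, on either strand. The recovery of depth and the limma fit were tested on simulated data. The simulated fit changed only genes with far more reads than most members, and it did not cover ratios. Intervals cover counting error only, and floors of reads cover that of the group at 0 alone.

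Members, lists and tests were chosen with earlier results of these data known. Named were the 8 highest members, well-read calls with groups that do not overlap, ratio calls, a host with 3 members, the edge of the rule, and Snord35a, Snord37, Snord118, Gas5, Snhg1 and Nop56. Others were chosen after their values were seen. The snoRNAs of another such host are not reported here.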

Additional observations from a re-analysis of the deposited data

Results flagged for a closer look

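In 6 of 66 groups of 4 libraries (22 snoRNAs), 1 library stood apart from the other 3 by Dixon's criterion. Its chance rate of about 1 in 20 groups is for normally distributed values and does not hold for groups of a few reads. The count of 6 is therefore given without a chance level. Gm27295 had an FPKM of 0.884 in untreated replicate 2, below 2.87 to 3.11 in the other untreated libraries, and its call in PLG+EACA+RNase against untreated cells held without that library. Gm24336 had 25.5 FPKM in untreated replicate 1, above 16.3 to 17.4. Snord35a had 3.76 in untreated replicate 2, above 0.662 to 1.09. Gm23245 had 0.653 in PLG+EACA replicate 2, above 0.380 to 0.423, and 1.76 in untreated replicate 4, above 1.00 to 1.09. Gm23301 had 1.51 in PLG+EACA+RNase replicate 1, with the others at 0. Apart from that of Gm24336, these values rest on 2 to 5 reads.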

How the results depend on the processing

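No call of a snoRNA or ratio reversed under any alternative. Of the 32 snoRNA calls, 18 rest on the higher group for the member's level. Of the other 14, 3 stayed past the threshold under all alternatives that tested them. These were the call of Gm27295, and those of Gm24944 in both comparisons with untreated cells. Gm24944 reached its level through the treated groups alone, so nothing is read from its calls. Both ratio calls of Snord17 also stayed past the threshold under all alternatives. The calls rest on few reads: 27 of 32 could not be tested once genes needed 10 reads in 4 libraries, and 9 calls ended with limma voom on recovered reads, an alternative added after seeing the data. In PLG+EACA against untreated cells (8 snoRNAs called) the count was 5 with a pseudocount of 0.1, 4 with no filter, 1 with 10 reads, 5 with voom, 4 with voom and median-of-ratios scaling, and 6 to 12 with a library left out. In PLG+EACA+RNase against untreated cells (19) it was 10 with no filter, 3 with 10 reads and 11 to 19 with a library left out, the 11 without untreated replicate 3. In PLG+EACA+RNase against PLG+EACA (5) it was 2 with no filter, 3 with a mean FPKM of at least 1, 1 with 10 reads and 2 to 6 with a library left out, with 2 without PLG+EACA+RNase replicate 2 and 3 without PLG+EACA replicate 1.

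Hosts in PLG+EACA+RNase against PLG+EACA (12) numbered 6 with no filter and 5 to 18 with a library left out, with 7, 5 and 5 without PLG+EACA+RNase replicates 1, 2 and 3 and 7 without PLG+EACA replicate 4. Left-out ranges were 34 to 49 and 31 to 39 hosts for PLG+EACA and PLG+EACA+RNase against untreated cells. Ratios in PLG+EACA against untreated cells (1) numbered 3 with a pseudocount of 1, 2 with 10 reads, 3 with no filter and 1 to 2 with a library left out. Ratios in PLG+EACA+RNase against untreated cells (4) numbered 3 to 5, and 3 with hosts on the same strand alone (added after seeing the data). Those in PLG+EACA+RNase against PLG+EACA (1, Gm22888) numbered 2 with a pseudocount of 0.1, 0 with a mean FPKM of at least 1, 0 with 10 reads and 0 to 1 with a library left out, the 0 without replicate 1, 3 or 4 of either group. List genes in PLG+EACA+RNase against PLG+EACA (8) numbered 4 with no filter and 2 to 13 with a library left out, with 4, 2, 3 and 13 without PLG+EACA+RNase replicates 1, 2, 3 and 4; against untreated cells they ran from 54 to 62 with PLG+EACA and 54 to 63 with PLG+EACA+RNase. Without Gm26917 in the total, the members' share was 0.00870%, 0.00803% and 0.00877% of reads with PLG+EACA+RNase, with PLG+EACA and in untreated cells. The cause of these changes was not tested, other than that fewer genes are tested with the stricter filters and fewer samples are fitted without a library.

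Whether the replicate numbers pair the libraries was not settled. Correlations of deviations between libraries of the same number ran from -0.18 to 0.33. For 7 of 12 libraries the best match in another group had their own number, and no chance level was worked out for this count. With the number as a block, 8, 16 and 5 snoRNAs, 45, 35 and 13 hosts and 1, 3 and 1 ratios were called. The planned edgeR test on recovered reads was not run, since the deposited values are FPKM, and voom took its place.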
